A study of Mus musculus with 59 samples.

Results

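The circadian clock genes Per1, Per2, Per3, Dbp, Nr1d1, Nr1d2, Ciart, Tef, Bhlhe41 and Clock were followed through 59 RNA-seq libraries of mouse cortex and hippocampus. They were taken by symbol, 10 genes out of 57180 gene rows, and each passed the filter on low counts in both tissues. The study crossed heterozygous loss of Slc25a1, the mitochondrial citrate carrier, with heterozygous loss of Mrpl40, a protein of the mitochondrial ribosome. All animals were male. Cortex was represented by 9 libraries with both genes wild type, 7 of animals labelled as carrying 1 lost copy of Slc25a1 (Slc25a1 het), 7 with 1 lost copy of Mrpl40 (Mrpl40 het) and 7 with both losses (double het), and hippocampus by 8, 7, 7 and 7. Of the 30 animals, 29 gave both tissues. The labels give neither age, strain nor the kind of allele, and no hour of tissue collection or light schedule, so the position of any library in the daily cycle is unknown.

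Library totals ranged from 21443017 to 32120906 counts. All levels below are in CPM, counts relative to a common library total after scaling for library composition (for the targeted genes in the next sentences without that scaling). Slc25a1 had a cortical median of 24.0 CPM in wild type and 12.6 CPM in Slc25a1 het, and 12 of the 59 libraries, from 6 animals, lay on the other label's side of the midpoint between carriers and non-carriers (18.1 CPM). Mrpl40 did not separate the labels: its cortical median was 17.1 CPM in wild type, 17.1 CPM in Mrpl40 het and 17.5 CPM in double het. Genotypes below are therefore those of the labels, and each genotype count was also made without the 6 animals. Neuronal markers were high in every library (Snap25 at 1568.1 CPM or more), whereas 3 of 5 listed markers of the suprachiasmatic nucleus, which houses the central clock, stayed at or below 0.441 CPM (Avp, Nms and Six6). The other two, Vip and Rgs16, were expressed, and Vip is also a marker of cortical interneurons; the summed level of the 5 was 42.7 to 77.0 CPM in cortex and 11.7 to 27.9 CPM in hippocampus. In bulk tissue, fewer cells of a type and less RNA per cell cannot be told apart.

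In the mammalian clock, CLOCK pairs with BMAL1 (gene Arntl) and activates genes with E-box sequences, among them the Per and Cry genes, whose proteins return to the nucleus and repress CLOCK and BMAL1. Ciart and Bhlhe41 encode further repressors of this pair. The nuclear receptors encoded by Nr1d1 and Nr1d2 (the REV-ERBs) repress Arntl through ROR elements, and DBP and TEF activate genes with D-box sequences, opposed by NFIL3. In the brain outside the central clock these transcripts cycle over the day, with Arntl in antiphase to Nr1d1, Dbp and Per, and Per1 is in addition switched on within minutes by neuronal activity and by glucocorticoids.

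The promoters show which of these sequence elements sit near the members that are compared below. RefSeq promoter windows of 300 bases (250 before the transcription start to 50 after it, GRCm38.p6) were at hand for 9 of the 10 members; Per2 is the member that is named only. Both strands were searched for 4 motifs, of which none contains another. The E-box CACGTG was found in the windows of 4 of the 9 members (Per1, Ciart, Tef and Bhlhe41), against 8.09% of 27025 genes with a window. Ciart held 3 copies. The D-box TTATGTAA was found at 2 positions in Per3 and in no other member, against 1.11% of all genes. Neither the ROR element, searched as the half-site AGGTCA directly after ANNT (0.829% of all genes), nor the cAMP response element TGACGTCA (2.03%) was found in these 9 members. The stretches around the matches outside exons are printed 5′ to 3′ on the gene's strand, with the motif in capitals. They are matches to the sequence elements named above, and whether they act in these genes was not tested. Their positions are chr11:69098761-69098810 for Per1 (plus strand), chr3:95882317-95882366 and chr3:95882252-95882308 for Ciart (minus), chr15:81811254-81811303 for Tef (plus), chr6:145865559-145865595 for Bhlhe41 (minus) and chr4:151044794-151044892 for Per3 (minus).
Per1: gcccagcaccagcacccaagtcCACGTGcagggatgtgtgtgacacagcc
Ciart, distal: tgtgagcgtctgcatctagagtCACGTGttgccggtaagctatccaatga
Ciart, proximal: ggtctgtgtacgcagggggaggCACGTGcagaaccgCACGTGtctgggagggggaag
Tef: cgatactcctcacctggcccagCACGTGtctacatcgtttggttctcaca
Bhlhe41: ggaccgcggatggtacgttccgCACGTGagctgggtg
Per3: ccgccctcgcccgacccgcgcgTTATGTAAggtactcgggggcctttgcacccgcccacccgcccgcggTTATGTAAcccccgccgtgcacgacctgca

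Per kilobase of exon, the cortical order was Tef (mean 43.6 CPM per kb, SD 2.42, n = 30), Nr1d1 (42.0, SD 5.05), Per1 (34.7, SD 9.37), Nr1d2 (22.4, SD 1.79), Dbp (11.2, SD 1.96), Per2 (9.42, SD 2.04), Ciart (8.87, SD 1.63), Per3 (6.03, SD 0.528), Clock (5.91, SD 0.277) and Bhlhe41 (4.11, SD 0.464). The ranges of neighbours in this order overlapped except between Nr1d2 and Dbp and between Clock and Bhlhe41. In hippocampus Tef stood alone at the top (54.1 CPM per kb, SD 3.38, n = 29), above Nr1d1 (27.4, SD 2.45), and Ciart was last (4.63, SD 0.703). There Tef, Nr1d1 and Per1 each lay above the next gene without overlap.

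The members also differed in their spread between libraries. In cortex Per1 varied most: its cortical level ran from 91.6 to 279.9 CPM, a ratio of 3.06, and its SD on the log2 scale within genotypes was 0.42, exceeded by 12.9% of tested genes. Hippocampal Per1 ran only from 72.5 to 100.9 CPM, and 65.3% of tested genes had a larger SD than its 0.12. Per2 followed in cortex, with 28.8 to 76.4 CPM (SD 0.34). In hippocampus the largest log2 SDs were those of Ciart (0.22), Dbp (0.21) and Per2 (0.19, 28.9 to 51.2 CPM). At the other end, Clock ran from 74.2 to 88.6 CPM in cortex and from 67.8 to 83.0 CPM in hippocampus, and Tef from 309.6 to 375.3 CPM and from 385.3 to 491.2 CPM. Per1 was thus the member whose spread differed most between the tissues.

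**Figure D1:**
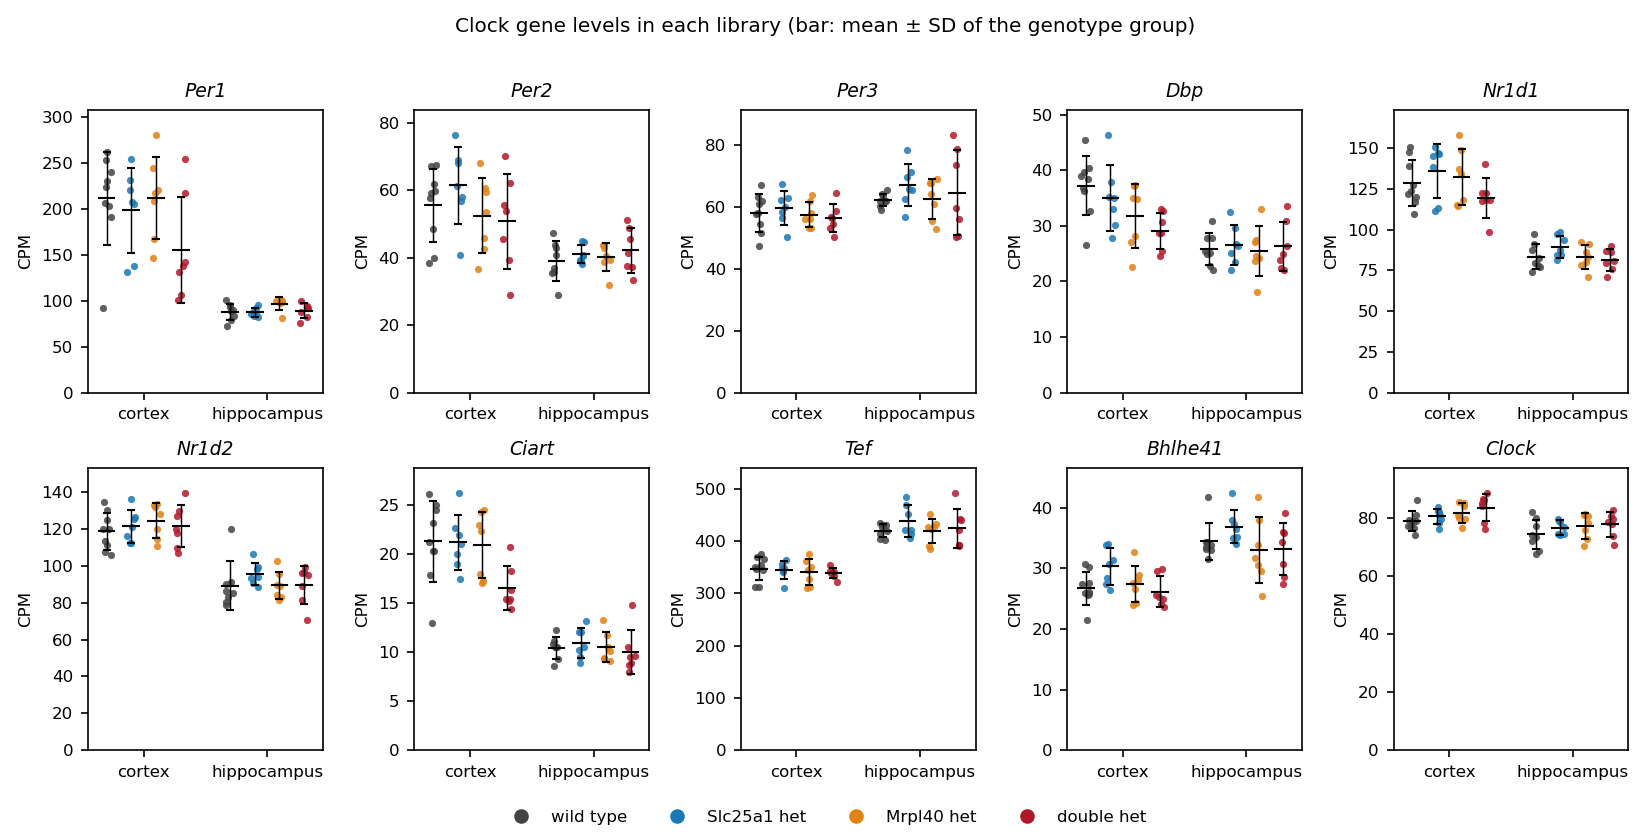
Level of each of the 10 clock genes in CPM (linear axis from 0), 1 point per library, by tissue and labelled genotype (n = 7 to 9 per group), with the mean and SD of each group as bars. Per1 spreads from 91.6 to 279.9 CPM in cortex and from 72.5 to 100.9 CPM in hippocampus, while the genotype groups of every gene overlap within a tissue.

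Cortex and hippocampus of the same animals differed in every member. The comparison asks how the clock genes are set in these tissues, irrespective of genotype. All 10 members passed the test between tissues (edgeR quasi-likelihood test with the animal as a block, Benjamini-Hochberg adjusted p under 0.05), where 77.4% of the 21354 genes tested passed it as well, the background against which this count is to be read. 7 members were lower in hippocampus and 3 were higher, where 37.7% of all genes were lower and 39.7% higher. Astrocyte markers also differed between the tissues, with a summed level of 849 to 1135 CPM in cortex and 1378 to 2175 CPM in hippocampus and no overlap, and their part in the members' differences was not tested.

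Among the Per genes, Per1 fell from a cortical median of 207.7 CPM (91.6 to 279.9) to a hippocampal median of 91.7 CPM (72.5 to 100.9). It was lower in the hippocampus of 29 of 29 animals, with 1 cortical library inside the hippocampal range, and the log2 fold change was -1.08 (SE 0.073, adjusted p = 2.77e-14). Per2 was lower as well, from 57.9 CPM (28.8 to 76.4) to 40.5 CPM (28.9 to 51.2), in 28 of 29 animals (log2 fold change -0.46, SE 0.051, adjusted p = 1.1e-09). Per3 went the other way and by little, from 58.0 CPM (47.4 to 67.5) to 63.5 CPM (50.2 to 83.2), higher in 22 of 29 animals (0.10, SE 0.034, adjusted p = 0.00768). The period genes, which encode the core repressors of CLOCK and BMAL1, thus did not move as a group.

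The other repressors also split. Ciart, which encodes a repressor that binds CLOCK and BMAL1, fell from a median of 20.3 CPM (12.9 to 26.2) to 10.5 CPM (7.94 to 14.7), in 29 of 29 animals (log2 fold change -0.97, SE 0.056, adjusted p = 4.77e-17). Bhlhe41, which encodes an E-box repressor, rose from 27.4 CPM (21.4 to 34.0) to 34.3 CPM (25.5 to 42.3), in 27 of 29 animals (0.27, SE 0.035, adjusted p = 1.69e-08). Both REV-ERB genes fell in 29 of 29 animals: Nr1d1 from 123.3 CPM (98.5 to 157.8) to 84.1 CPM (70.7 to 98.7), by 0.65 on the log2 scale (SE 0.028), and Nr1d2 from 119.8 CPM (105.8 to 139.1) to 89.9 CPM (70.4 to 119.7), by 0.46 (SE 0.027).

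The D-box activators went in opposite directions. Dbp fell from a median of 33.9 CPM (22.7 to 46.3) to 25.2 CPM (18.1 to 33.6), in 25 of 29 animals (log2 fold change -0.40, SE 0.046, adjusted p = 1.87e-09). Tef rose from 345.0 CPM (309.6 to 375.3) to 422.7 CPM (385.3 to 491.2), in 29 of 29 animals and without overlap of the tissues (0.27, SE 0.022, adjusted p = 3.51e-14). Clock, the activator itself, was close to level, at 80.6 CPM (74.2 to 88.6) and 77.4 CPM (67.8 to 83.0), and its fall of 0.12 on the log2 scale (SE 0.018, adjusted p = 2.51e-07) was seen in 22 of 29 animals.

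The rest of the clock machinery was mostly lower in hippocampus too. Of the partner transcription factors of CLOCK, 3 of 3 fell: Npas2, which can replace CLOCK in the forebrain, had a log2 fold change of -1.62, Arntl of -0.40 and Arntl2 of -0.19. Cry1, Cry2 and Bhlhe40, the other clock repressors listed, had log2 fold changes of -0.48, -0.27 and -0.61. Rora and Rorb, which encode receptors that activate Arntl, were lower (-1.33 and -1.72), and both other D-box factors, Hlf and Nfil3, were lower (-0.44 and -0.45). Kinases and ubiquitin ligase parts of the clock were divided, with 3 of 7 higher and 2 lower, as were 6 output genes with 3 in each direction. Immediate early genes, which neuronal activity induces, were lower in 14 of 16, with a median of -2.30, and their part in the difference of Per1 was not tested.

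**Figure D2:**
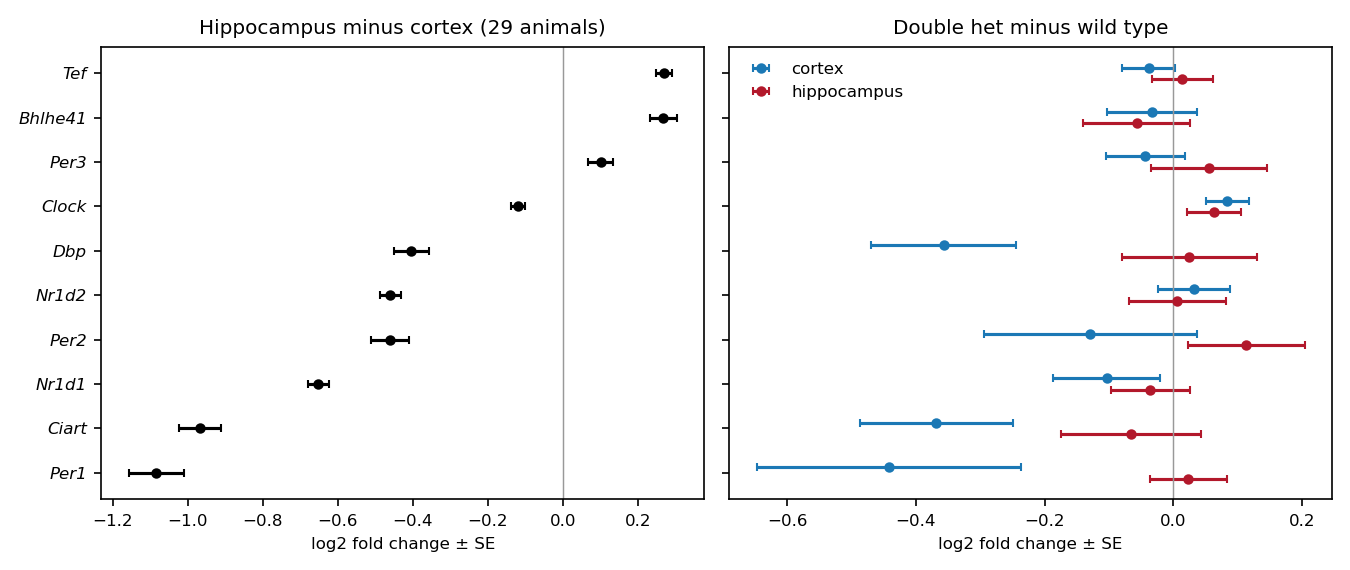
Left, log2 fold change of each clock gene between hippocampus and cortex of 29 animals, and right, between labelled double het and wild type in each tissue, as points with SE bars. The tissue differences run from -1.08 for Per1 to 0.27 for Tef. The genotype differences run from -0.44 to 0.08 in cortex and from -0.07 to 0.11 in hippocampus, and none passed the test.

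No member passed the test between genotypes. In cortex 0 of 10 members passed the test in any comparison, with edgeR and with the DESeq2 Wald test alike. The background was as low: no gene passed for Slc25a1 het against wild type (0%), 0.0294% for Mrpl40 het and 0.0686% for double het, with 0.0588% for double het against Slc25a1 het, 0.0049% for double het against Mrpl40 het and 0% for the interaction, the double het effect minus both single effects. At an unadjusted p under 0.05, 4 of 10 members stood apart in double het against wild type, where 10.9% of all genes did, and for double het against Slc25a1 het 4 of 10 did, where 9.92% of all genes did. In the other comparisons 1 or 2 members did: 1 for Slc25a1 het (3.17% of all genes) and 1 for Mrpl40 het against wild type (6.94%), 2 for double het against Mrpl40 het (6.94%) and 1 for the interaction (5.35%). DESeq2 gave the same numbers of members except 3 for the interaction. Tests on simulated data recovered 50.7% of changes of 1.2-fold and 93.9% of changes of 2-fold in cortical double het against wild type. The changed genes were drawn at random from all 20394 tested, so these shares do not measure recovery for the members. In this comparison the SE of the members ran from 0.034 (Clock) to 0.21 (Per1).

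The largest genotype differences in cortex were those of Dbp, Ciart and Per1, with lower values in double het. Dbp had a median of 28.7 CPM in double het (24.5 to 33.0) and 38.4 CPM in wild type (26.6 to 45.4), with Mrpl40 het at 34.8 (22.7 to 37.4) and Slc25a1 het at 35.0 (27.8 to 46.3). The groups overlapped, and double het minus wild type was -0.36 on the log2 scale (SE 0.11, edgeR adjusted p = 0.225). Ciart stood at 15.4 CPM in double het (14.4 to 20.7) and 21.2 CPM in wild type (12.9 to 26.1), with Mrpl40 het at 22.4 (17.0 to 24.5) and Slc25a1 het at 20.9 (17.4 to 26.2). The double het value was -0.37 against wild type (SE 0.12, adjusted p = 0.234), -0.36 against Slc25a1 het (adjusted p = 0.303) and -0.34 against Mrpl40 het (adjusted p = 0.561). The 3 comparisons share the double het libraries.

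Cortical Per1 was at 137.6 CPM in double het (101.1 to 254.1) and 223.4 CPM in wild type (91.6 to 261.4), with Mrpl40 het at 217.1 (146.7 to 279.9) and Slc25a1 het at 207.3 (131.6 to 253.7). 5 of the 7 double het libraries lay at 141.8 CPM or lower, as did 1 wild-type and 2 Slc25a1 het libraries. Its double het value was -0.44 (SE 0.21, adjusted p = 0.425). The summed level of 16 immediate early genes moved with it, with medians of 1650 CPM in double het (1182 to 3125), 2591 CPM in wild type (1023 to 3524), and 2926 and 2391 CPM in the Mrpl40 and Slc25a1 single hets, and their part in the Per1 value was not tested. Bhlhe41 was at 0.18 in Slc25a1 het against wild type (SE 0.069, adjusted p = 1) and at -0.21 in double het against Slc25a1 het (adjusted p = 0.288). Clock was at 0.08 in double het (SE 0.034, adjusted p = 0.33).

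In hippocampus 0 of 10 members passed in any of the 6 comparisons, with 0.00496% of all genes passing for Mrpl40 het against wild type, 0.00992% for double het against wild type and 0% for each other comparison. Unadjusted p values under 0.05 were met by Per1 for Mrpl40 het against wild type (log2 fold change 0.14, SE 0.060, adjusted p = 0.59) and by Nr1d1 for double het against Slc25a1 het (-0.14, SE 0.063, adjusted p = 0.529). With 1 member each, these counts stand beside 8.19% and 9.04% of all genes at that threshold. Hippocampal Dbp had medians of 25.0 CPM in double het and 25.3 CPM in wild type (single hets 26.4 and 24.6 CPM), and Ciart of 9.47 and 10.5 CPM (single hets 10.5 and 10.1 CPM). Whether the genotype effect differs between the tissues was tested in the fit with the animal block, and 0 of 10 members passed for any genotype, with 0%, 0% and 0.0234% of all genes passing. Dbp came closest, its double het effect being higher in hippocampus by 0.43 (SE 0.11, adjusted p = 0.259). Per1 and Per2 had differences of 0.45 and 0.29 (adjusted p = 0.948 and 0.985).

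Within genotypes, several members rose and fell together from library to library. This was measured as the correlation of log2 CPM after removing each genotype's mean, and tested by fitting every gene of the tissue on the level of a member in edgeR, so that the adjusted p is over all genes. A pair was called only when it passed in both directions, each member fitted on the other. In cortex, 3 of 45 pairs were called and they formed 1 triangle: Dbp with Nr1d1, Dbp with Bhlhe41 and Nr1d1 with Bhlhe41. The share of all genes that passed was 0.0637% for Dbp, 0.0637% for Nr1d1 and 0.0294% for Bhlhe41, that is 13, 13 and 6 genes. For the other members it was 2.82% (Per2), 1.85% (Nr1d2), 1.28% (Per1), 1.22% (Tef), 0.299% (Clock), 0.0588% (Per3) and 0% (Ciart).

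Dbp and Nr1d1 were correlated at r = 0.81 (rho 0.81, n = 30), and Nr1d1 changed by 0.60 log2 units per log2 unit of Dbp (SE 0.081, adjusted p = 0.000207). Leaving out any 1 library gave r of 0.79 to 0.84. Within the 4 genotypes r was 0.84 (n = 9), 0.80, 0.91 and 0.61 (n = 7 each, in the order of the opening). Dbp and Bhlhe41 reached r = 0.77 (slope of Bhlhe41 on Dbp 0.50, SE 0.083, adjusted p = 0.00502), and Nr1d1 and Bhlhe41 r = 0.73 (slope of Bhlhe41 on Nr1d1 0.64, SE 0.11, adjusted p = 0.0121). An output activator, a REV-ERB receptor and an E-box repressor thus made up the cortical triangle. Dbp with Nr1d1 was called in each of 30 fits that left out 1 library. Nr1d1 with Bhlhe41 lost its call without wild type library 1, wild type library 5, Mrpl40 het library 3 or double het library 4 (adjusted p up to 0.0586), and Dbp with Bhlhe41 without wild type library 1 (adjusted p = 0.0867). The Dbp and Nr1d1 transcripts each share exon bases with a gene on the opposite strand (Sphk2 over 18.0% of the exon bases of Dbp, Thra over 8.55% of those of Nr1d1), and so does Bhlhe41 (Gm43909, 19.1%). The kit marks strand, but the labels do not state how strand entered the counting, and reads of such partners may be included.

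In hippocampus, 2 of 45 pairs were called. Per3 and Tef were correlated at r = 0.86 (rho 0.85, n = 29, without any 1 library 0.83 to 0.88), with a slope of Tef on Per3 of 0.42 (SE 0.066, adjusted p = 0.000376). Their r was lower in wild type (0.48, n = 8) than in Slc25a1 het (0.79), Mrpl40 het (0.93) and double het (0.93, n = 7 each). Per3 was also associated with 7.35% of all genes there and Tef with 4.52%, against which that call is to be read. Nr1d2 and Bhlhe41 reached r = 0.75 (slope of Bhlhe41 on Nr1d2 0.84, SE 0.14, adjusted p = 0.00138), against shares of 5.43% and 4.06% of all genes. Dbp was associated with 0.0992% of genes there, and Per1, Per2, Nr1d1, Ciart and Clock with none (0%). The cortical triangle had r of 0.72, 0.64 and 0.57 in hippocampus, in the order given above. Of these, Nr1d1 passed when fitted on Dbp (adjusted p = 0.025) and Dbp did not pass when fitted on Nr1d1 (adjusted p = 0.0576).

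Over all 45 pairs, the median r was 0.27 in cortex, with 32 positive, and 0.38 in hippocampus, with 44 positive. An r of at least 0.5 was reached by 13 cortical and 11 hippocampal pairs, and none reached -0.5 (lowest -0.39, Per1 with Tef in cortex). Across all pairs of a member with any tested gene, 2.01% in cortex and 2.47% in hippocampus had an r of at least 0.5. The first principal component of the 10 members held 38.6% of their variance in cortex and 45.7% in hippocampus. In hippocampus all 10 loadings had 1 sign. In cortex Dbp (0.46), Nr1d2 (0.42), Bhlhe41 (0.39) and Nr1d1 (0.39) led it and Per1 had the opposite sign (-0.14), while Ciart (0.62) and Per1 (0.43) led the second component, which held 19.8%.

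**Figure D3:**
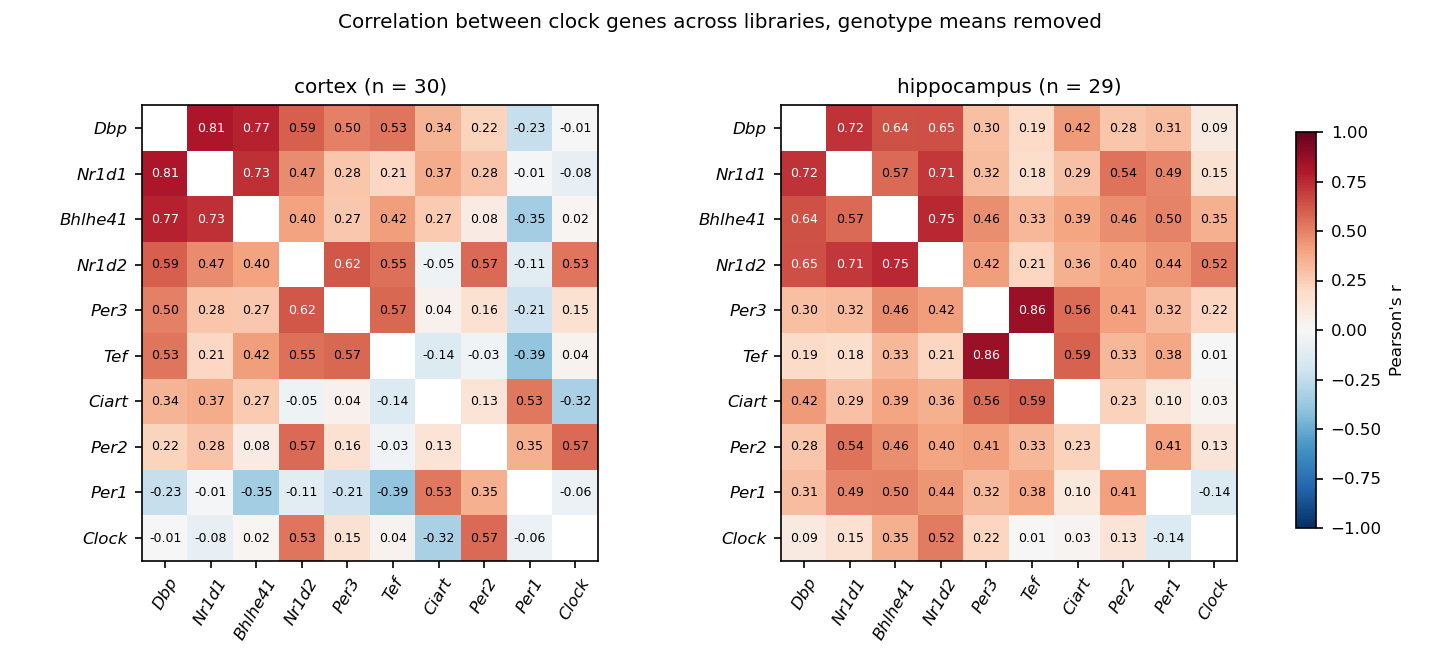
Pearson's r between each pair of clock genes across 30 cortical (left) and 29 hippocampal (right) libraries after removing genotype means, red for positive and blue for negative. Dbp, Nr1d1, Bhlhe41 and Nr1d2 form a positive block in both tissues, and Per1 is negative with 7 of 9 members in cortex (lowest -0.39) and with 1 in hippocampus.

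Per1 behaved apart from that block in cortex. Ciart was mixed, with r = 0.34 with Dbp and 0.37 with Nr1d1. Its slope was 0.45 (SE 0.31) on Bhlhe41 and -0.10 (SE 0.39) on Nr1d2. Per1 had r = -0.23 with Dbp, -0.35 with Bhlhe41 and -0.01 with Nr1d1, but 0.53 with Ciart and 0.35 with Per2. The value with Ciart fell to 0.32 without wild type library 3, the lowest Per1 library, and was 0.61 at most without any other. Per1 followed the immediate early genes instead: its r with the mean of 16 such genes was 0.92 (rho 0.87, n = 30, permutation p = 1e-05, the smallest the permutations can give), 0.88 without the 2 libraries farthest from the median, and 0.94, 0.88, 0.96 and 0.93 within the 4 genotypes in that order. Of these 16 genes, 13 were positively associated with Per1, against 1.1% of all genes. Egr2 changed by 2.48 log2 units per log2 unit of Per1 (SE 0.17, adjusted p = 4.67e-10), Egr1 by 0.88 (SE 0.074) and Fos by 1.53 (SE 0.18). The lowest cortical Per1 library, wild type of animal 3 at 91.6 CPM, also had the lowest summed level of these genes (1023 CPM).

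In hippocampus the range of Per1 was narrow and the relation weaker, r = 0.55 with the same mean (rho 0.43, n = 29, permutation p = 0.0044), and not uniform over genotypes: 0.79, -0.41, 0.33 and 0.84 in the same order. None of the 16 genes was associated with Per1 there, where no gene at all was (0%). With the immediate early gene mean as a further covariate, 1 of the 3 cortical pairs was still called, Dbp with Nr1d1. Bhlhe41 (r = -0.53) and Dbp (-0.41) ran against the immediate early genes in cortex.

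**Figure D4:**
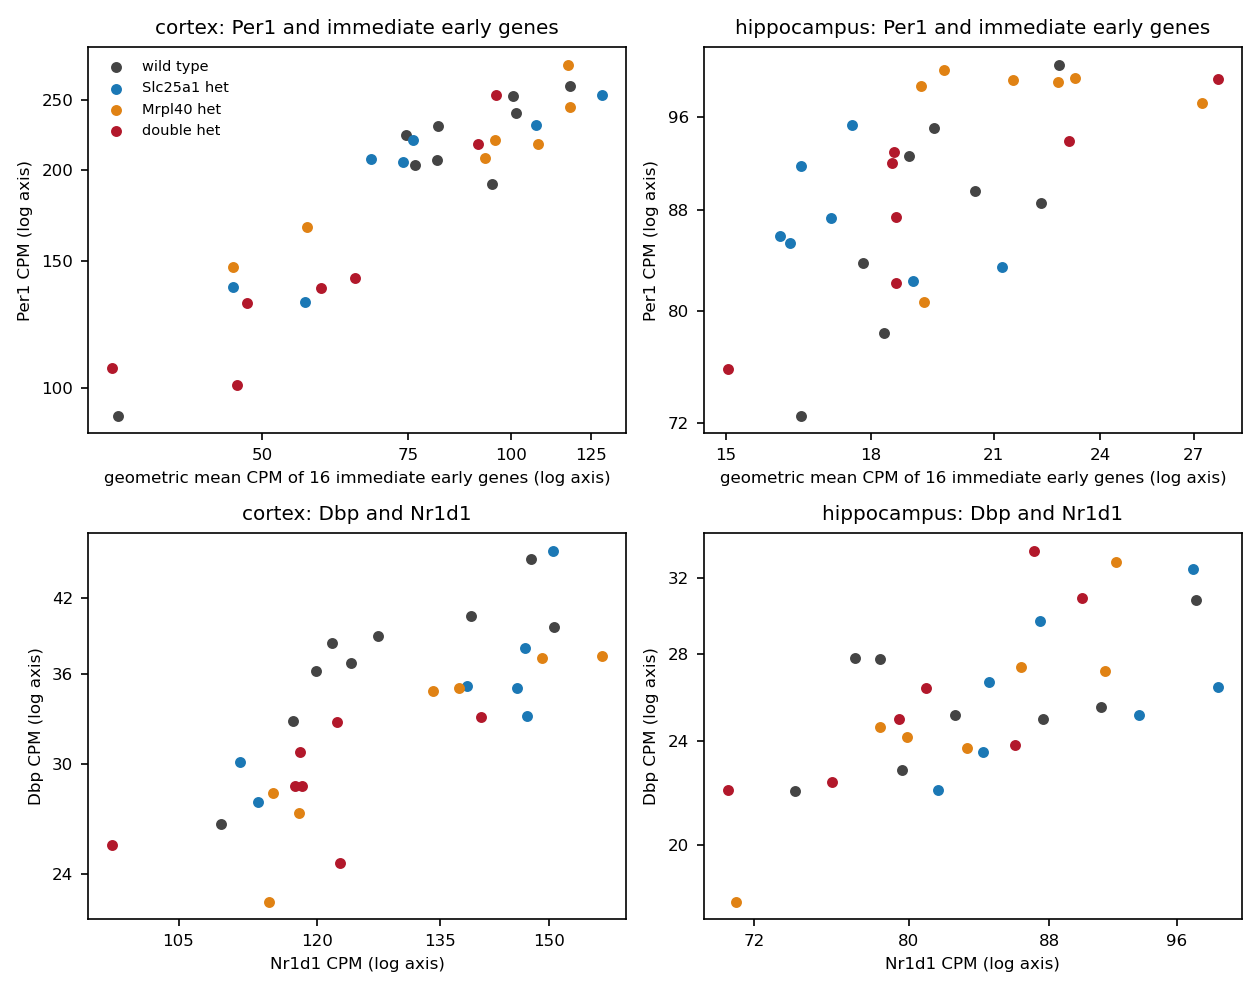
Top, Per1 in CPM against the geometric mean CPM of 16 immediate early genes, and bottom, Dbp against Nr1d1 in CPM, in cortex (left) and hippocampus (right), 1 point per library, log axes, coloured by labelled genotype. Per1 follows the immediate early genes closely in cortex (r = 0.92 with genotype means removed) and less in hippocampus (0.55), and Dbp rises with Nr1d1 in both tissues (0.81 and 0.72).

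Per2 and the glucocorticoid response genes gave a further relation. Of 12 glucocorticoid response genes, 3 were positively associated with Per2 in cortex, where 1.81% of all genes were: Klf9 (slope 0.23, SE 0.047, adjusted p = 0.00377), Fkbp5 (0.34, SE 0.076, adjusted p = 0.00973) and Tsc22d3 (0.25, SE 0.067, adjusted p = 0.0333). The r of Per2 with the mean of the 12 was 0.54 in cortex (n = 30, permutation p = 0.00266) and 0.52 in hippocampus (n = 29, permutation p = 0.00548), falling to 0.51 and 0.37 without the 2 farthest libraries. In hippocampus 0 of the 12 was associated with Per2, where no gene was. Heat shock genes gave negative correlations with 2 members. Nr1d1 had r = -0.61 in cortex and -0.60 in hippocampus with the mean of 8 genes of the temperature and heat shock response, and Bhlhe41 had -0.53 and -0.50. None of the 8 genes passed with Nr1d1 in either tissue, nor with any member in cortex. In hippocampus 2 of 8 passed with Bhlhe41 (Hsp90aa1 and Hspa1b, where 4.06% of all genes passed), 1 with Nr1d2 (Hspa1b, 5.43%) and 1 with Per3 (Hsp90aa1, 7.35%), each with a negative slope. In all, 340 such r values were computed, 10 members with 17 list means in each tissue, and their p values are not adjusted.

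Other listed clock genes, antiphase partners among them, gave a mixed picture with the members. Arntl, whose transcript peaks opposite to Dbp and Nr1d1 over the day, was negative with Dbp in cortex (r = -0.46) and positive in hippocampus (0.40), and with Nr1d1 it was -0.37 and 0.05. Without the 2 libraries farthest from the median, the values with Dbp were -0.35 and 0.12, so the positive hippocampal value rests on those libraries. The values with Nr1d1 were then -0.27 and -0.26, close to each other. Cortical Arntl was negative with each member except Per1 (0.22), though near 0 with Clock (-0.01). Npas2 was -0.25 with Nr1d1 in cortex and 0.68 in hippocampus. Nfil3, the D-box repressor that opposes DBP, was negative with Dbp in both, -0.61 and -0.65, and in cortex at 0.83 with Per1. Cry1 was at -0.51 with Nr1d1 in cortex and 0.09 in hippocampus. Cry2 had 0.60 with Per1 (0.36 without the 2 farthest libraries) and 0.56 with Per2 in cortex, and Rora and Rorb had 0.41 and 0.50 with Nr1d1 in hippocampus against -0.12 and -0.22 in cortex. These r values are a selection from all pairs of listed clock genes and members, given as descriptions. The differences of r between the tissues were not tested.

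Across all clock lists, few genes passed. In cortex these were Coq10b (slope on Per1 0.50, SE 0.059, adjusted p = 4.27e-07), Nfil3 (0.69, SE 0.087, adjusted p = 3.6e-06) and Bhlhe40 (0.42, SE 0.065, adjusted p = 0.000192), all on Per1. In hippocampus Hlf was associated with Nr1d2 (slope 1.06, SE 0.19, adjusted p = 0.00192) and with Bhlhe41 (0.85, SE 0.20, adjusted p = 0.0123), Npas2 with Nr1d2 (1.25, SE 0.27, adjusted p = 0.00755), Bhlhe40 with Bhlhe41 (0.83, SE 0.15, adjusted p = 0.00194), Lonrf3 with Per3 (1.04, SE 0.24, adjusted p = 0.00906) and Csnk1d with Nr1d2 (-0.25, SE 0.076, adjusted p = 0.0444). With cortical Per1 these were 1 of 6 output genes, 1 of 2 other D-box factors and 1 of 3 other repressors, where 1.28% of all genes passed. With hippocampal Nr1d2 they were 1 of 2 other D-box factors, 1 of 3 partners and 1 of 7 kinases and ligase parts (5.43% of all genes). With Bhlhe41 they were 1 of 2 other D-box factors and 1 of 3 other repressors (4.06%), and with Per3 1 of 6 output genes (7.35%). Bhlhe40 and Bhlhe41, the paralogous E-box repressors, had r = 0.72 in hippocampus and -0.03 in cortex.

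Outside the lists, the genes most like a member were those with the highest r in both tissues among 13598 genes. For Per1 these were Kdm6b, a histone demethylase gene (r = 0.90 in cortex and 0.71 in hippocampus), Sik1, a salt-inducible kinase gene (0.95 and 0.69), and Atcayos (0.69 and 0.65). For Dbp they were Arhgef10l (0.65 and 0.72), Clcn2 (0.61 and 0.64) and Tmem191c (0.57 and 0.61), and Arhgef10l was also first for Nr1d1 (0.59 and 0.59). Per2 was closest to Arhgef3 (0.81 and 0.59), Per3 to Ahcyl2 (0.68 and 0.82), Nr1d2 to Spred1 (0.66 and 0.72), Tef to Baz1b (0.69 and 0.74), Bhlhe41 to Cdc25b (0.62 and 0.64), Clock to Rbm27 (0.66 and 0.73) and Ciart to D930016D06Rik (0.50 and 0.44). At the opposite end, Dbp ran against Caprin1 (-0.65 and -0.72), Cct4 (-0.62 and -0.70) and Nfil3. Nr1d1 ran against Stip1 (-0.66 and -0.66), a co-chaperone of heat shock proteins.

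The last comparison asked whether an animal with a high level in cortex also had a high level in hippocampus. Per2 showed the closest relation between tissues, r = 0.67 over 29 animals (rho 0.52, permutation p = 0.00024 for r and 0.00813 for rho), then Per1 with 0.55 (rho 0.49, p = 0.00575 and 0.0105) and Dbp with 0.46 (rho 0.46, p = 0.0271 and 0.0225). These permutation p values are for 10 members and are not adjusted. An r of at least 0.5 between tissues was reached by 4.58% of 19463 genes, and the median over all genes was 0.11. A higher r than that of Per2 was seen in 0.889% of genes, than that of Per1 in 2.95% and than that of Dbp in 6.7%.

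Without the 2 animals farthest from the cortical median, r was 0.61 for Per2, 0.41 for Per1 and 0.41 for Dbp, and leaving out animal 3 alone lowered that of Per1 to 0.41. The other members had r = 0.35 (Nr1d1, p = 0.074), 0.32 (Nr1d2), 0.22 (Per3), 0.11 (Ciart), 0.10 (Tef), 0.05 (Clock) and 0.03 (Bhlhe41), with p of 0.126 or more for those after Nr1d1. Bhlhe41 and Tef, which took part in called pairs within a tissue, were thus among those with the lowest r between tissues. The mean of the immediate early genes had r = 0.48 between tissues.

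**Figure D5:**
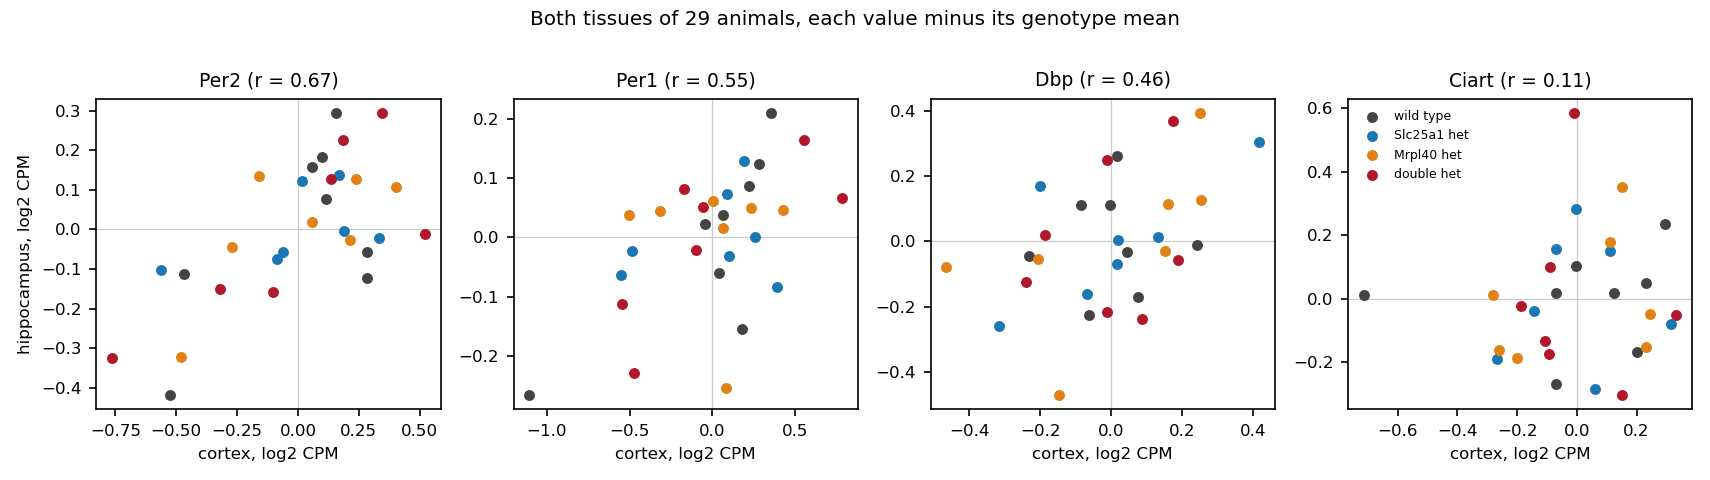
Log2 CPM in hippocampus against cortex of the same 29 animals, each value minus its genotype mean, for Per2, Per1, Dbp and Ciart, 1 point per animal, coloured by labelled genotype. Per2 (r = 0.67), Per1 (0.55) and Dbp (0.46) rise along the diagonal, with animal 3 at the lower left for Per1, and Ciart (0.11) does not.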

How the data were processed

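Poly(A) RNA of cortex and hippocampus was sequenced in 59 libraries with a strand-marking kit, per the labels' protocols. The submitters' processing notes name FastQC, HISAT2, featureCounts, DESeq2 and the builds GRCm39 and mm39; their settings and the annotation used are not stated there. The authors deposited raw counts for 57180 gene entries, with library totals of 21443017 to 32120906. The second deposited table holds a signal, normalized counts, in which each library's raw counts are divided by a single factor (checked on the values, relative range 9.85e-10); it served only as an alternative. All members passed the filter on low counts, and an effect of depth on their tests was not tested.

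Groups came from the labels. The members and the gene lists were chosen with earlier results of these data known. The members were named by symbol; other named genes are those of the partner, repressor, ROR and D-box lists, list genes past a test, and per member those with the highest and lowest r in both tissues. 1 list gene is not reported here. Counts were fitted in R 4.3.3 with the quasi-likelihood test of edgeR 4.0.16 (TMM scaling, filter on low counts, robust dispersion, Benjamini-Hochberg adjustment over all genes, threshold 0.05), all 4 genotypes of a tissue together. Tissues were compared with the animal as a block, since the labels give the animal. Deviations of both tissues of an animal correlated across genes with a median of 0.0722 (0.0231 to 0.159 over 29 animals). Between animals the median was -0.00449 (-0.137 to 0.137 over 812 pairs), so the ranges overlapped. Of 29 libraries, 15 correlated best with their own animal. For covariation, genotype-centred log2 CPM (prior count 2) of a member was added to the fit of all other genes. Correlations used the same values, with two-sided permutation p values from 100000 permutations within genotypes. Nothing in the labels says more on how replicates were raised or housed, and p values measure the spread between these animals. Exon lengths and overlaps came from GENCODE vM21 (GRCm38), matched by gene ID; promoters came from RefSeq (GRCm38.p6), and no coordinate was joined to the counts.

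Alternatives were DESeq2 size factors, the DESeq2 1.42.0 Wald test, no filter, fits of only the compared genotypes, a block for replicate number, leaving out the animal block, no genotype term, no centring, Spearman's rho, further covariates (immediate early genes, glucocorticoid response, oligodendrocyte markers), fits without the 6 animals and without 2 hippocampal libraries high in markers of cerebellum or choroid plexus. An exon length trend as covariate and each library left out in turn were chosen after seeing the data. The pipeline was tested on simulated data: for slopes of randomly drawn genes on Dbp in cortex it recovered 23.9%, 47.8% and 72.7% at slopes of 0.3, 0.6 and 1. Correlations, permutations and plots were made in Python 3.11.15 (numpy 2.4.6, pandas 2.3.3, scipy 1.17.1, matplotlib 3.10.9).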

Additional observations from a re-analysis of the deposited data

Results flagged for a closer look

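In 7 of 80 groups (10 members, 8 groups of libraries) the highest or lowest library lay far from the others by Dixon's criterion, which chance alone meets in about 1 group of 20. Cortical Per1 of wild type library 3 was at 91.6 CPM, with the next library at 191.1 CPM, and hippocampal Per1 of Mrpl40 het library 5 was at 80.7 CPM, below 97.3 CPM. Hippocampal Per2 of Mrpl40 het library 1 was at 31.9 CPM, below 38.8 CPM, and cortical Tef of Slc25a1 het library 7 at 309.6 CPM, below 340.5 CPM. On the high side, hippocampal wild type library 8 led its group for both Nr1d2 (119.7 CPM, next 91.0 CPM) and Bhlhe41 (41.7 CPM, next 34.4 CPM), the pair that was called in hippocampus. The pair was called in each of 29 fits that left out 1 library, this one included. Hippocampal Ciart of double het library 7 was at 14.7 CPM, above 10.5 CPM.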

How the results depend on the processing

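All counts of members by genotype stayed at 0 under every alternative run (smallest adjusted p of a member 0.0725 in the planned ones). This included 59 fits that left out 1 library (smallest adjusted p of a member 0.0852) and the fits without the 6 animals. All 10 members kept their tissue difference. The replicate block changed none of these counts. Replicate numbers did not pair the animals: libraries sharing a number across genotypes correlated with a median of 0.0224 in cortex and 0.0172 in hippocampus, and 6 of 30 and 4 of 29 correlated best with their own number. Called member pairs in cortex went from 3 to 1 with the replicate block, which kept Nr1d1 with Bhlhe41 and ended the calls of Dbp with Nr1d1 and with Bhlhe41, and to 1 with the immediate early gene covariate, which kept Dbp with Nr1d1. They went to 2 with no genotype term, which ended the call of Dbp with Bhlhe41. With the glucocorticoid covariate and with the length trend they were 4, and with the oligodendrocyte covariate 5. Of the 3 called pairs, 1 to 3 were still called when 1 library was left out. In hippocampus they went from 2 to 6 with no filter, 7 with no genotype term, 4 with the glucocorticoid covariate, 6 with the oligodendrocyte covariate, 4 without the 2 marker-high libraries and 5 with the length trend; both called pairs were still called when any 1 library was left out. Pairs not called with all libraries were not refitted in either tissue. Associations of clock list genes with a member (a gene counts once per member) went in cortex from 3 to 11 with no genotype term, 7 with the oligodendrocyte covariate and 8 with the length trend, and in hippocampus from 6 to 10 with no genotype term and 3 with the replicate block. The cause of these moves was not tested. Between tissues, 3 members had p under 0.05 under each alternative; they were Per1, Per2 and Dbp except with no centring, where Dbp did not pass (r = 0.36, permutation p = 0.0534) and Nr1d1 did (r = 0.42, permutation p = 0.023).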

Other observations

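The length trend of a library was the slope of its genotype-centred log2 CPM on the log10 exon length of genes. Its correlation differed between the members. In cortex (n = 30) r was 0.51 with Nr1d2, 0.39 with Clock, 0.39 with Tef and -0.52 with Ciart, and -0.02 with Dbp and -0.08 with Nr1d1. In hippocampus (n = 29) r with the 10 members lay between -0.26 (Bhlhe41) and 0.23 (Nr1d2). These r values are descriptions with no test.

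The mean of 5 oligodendrocyte markers had its lowest r with Tef, -0.35 in cortex (permutation p = 0.074) and -0.45 in hippocampus (permutation p = 0.0127), and its highest in hippocampus with Nr1d2 (0.36, permutation p = 0.102). These p values are not adjusted and belong to the 340 r values counted above. For Dbp, Nr1d1 and Bhlhe41 in cortex, r was -0.0026, -0.0017 and 0.09.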
